A study of Mus musculus with 30 samples.

Results

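The acute-phase genes Saa3, Saa1, Saa2, Lcn2, Hp, Ptx3 and Lbp were followed through all deposited raw counts of a study of mouse cardiac fibroblasts and their conversion towards cardiomyocyte-like cells. The 7 genes were chosen by name, and all 7 were found among the 59108 gene names of the files. The bulk RNA-seq comprised 28 libraries in 14 groups of 2, in 4 count tables that were each normalised and tested separately. All cells were primary cardiac fibroblasts of wild-type (WT) mice. In the first table, untreated fibroblasts had been cultured for 3 days from neonatal mice (postnatal days 1 to 3) and from mice of 3, 12 and 24 months. In the second, fibroblasts labelled MGT (the reprogramming factors Mef2c, Gata4 and Tbx5) were set against fibroblasts labelled LacZ (a bacterial enzyme used as an inert control) at day 3, in neonatal, 3-month and 18-month cells. In the third, neonatal fibroblasts labelled OENr4a3, which overexpressed the nuclear receptor Nr4a3, were set against fibroblasts labelled OECtrl. The titles give day 10 for that experiment and the design text gives day 7. In the fourth, 3-month cells labelled MGT+shNr4a3 were set against cells labelled MGT+shNT, both at day 7 and both with MGT. MGT cells were also profiled as single cells in 2 libraries, 1 of 24-month and 1 of neonatal origin. The column headers of the count tables give 13 months for the libraries labelled 12 months and 15 months for those labelled 18 months; ages here are those of the labels. The labels give neither the vectors nor the number of mice behind a library, so p-values measure only the spread between the deposited samples, which may be technical.

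Acute-phase proteins are plasma and tissue proteins whose synthesis climbs within hours of injury or infection, mainly in the liver under interleukin-6 and interleukin-1, and for several of them also in fibroblasts, macrophages and epithelium. Interleukin-6 family cytokines act through gp130 (Il6st), STAT3 and C/EBP factors, and interleukin-1 and TNF act through NF-kappaB. The serum amyloid A proteins bind lipids; Saa1 and Saa2 are the circulating liver forms in mice and Saa3 is the form made outside the liver. Haptoglobin (Hp) binds free haemoglobin, lipocalin 2 (Lcn2) binds iron-carrying bacterial siderophores, and lipopolysaccharide-binding protein (Lbp) hands bacterial lipopolysaccharide to Cd14. Pentraxin 3 (Ptx3) is a long pentraxin that recognises microbes and dying cells and is made by stromal and myeloid cells.

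The genes lie on 4 chromosomes (GRCm38): the 3 serum amyloid genes sit together on chromosome 7, Saa3 (ENSMUSG00000040026) at chr7:46711998-46715700, Saa1 (ENSMUSG00000074115) at chr7:46740497-46742980 and Saa2 (ENSMUSG00000057465) at chr7:46751790-46754313. Lcn2 (ENSMUSG00000026822) is at chr2:32384633-32388252, Lbp (ENSMUSG00000016024) at chr2:158306493-158332852, Ptx3 (ENSMUSG00000027832) at chr3:66219910-66225805 and Hp (ENSMUSG00000031722) at chr8:109575128-109579172. The 250 bases before the RefSeq start (GRCm38.p6) are shown for Saa3, Lcn2 and Ptx3, which moved in these data, and for Saa1, the liver form that stayed near 0 beside Saa3. Each runs 5′ to 3′ on the gene's own strand, and the capitals mark a match to the C/EBP motif TTNNGCAA on either strand.
Saa3 (chr7:46715677-46715926, minus strand): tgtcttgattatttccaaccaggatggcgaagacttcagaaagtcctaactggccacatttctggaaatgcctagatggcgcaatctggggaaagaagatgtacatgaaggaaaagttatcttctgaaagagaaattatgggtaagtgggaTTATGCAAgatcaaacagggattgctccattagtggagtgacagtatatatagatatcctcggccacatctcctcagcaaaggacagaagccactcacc
Saa1 (chr7:46742981-46743230, minus strand): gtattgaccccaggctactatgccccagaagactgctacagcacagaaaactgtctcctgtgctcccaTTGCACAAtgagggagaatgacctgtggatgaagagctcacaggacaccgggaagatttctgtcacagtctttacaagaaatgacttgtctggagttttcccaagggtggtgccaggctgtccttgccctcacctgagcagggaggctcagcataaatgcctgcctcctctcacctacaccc
Lcn2 (chr2:32387740-32387989, minus strand): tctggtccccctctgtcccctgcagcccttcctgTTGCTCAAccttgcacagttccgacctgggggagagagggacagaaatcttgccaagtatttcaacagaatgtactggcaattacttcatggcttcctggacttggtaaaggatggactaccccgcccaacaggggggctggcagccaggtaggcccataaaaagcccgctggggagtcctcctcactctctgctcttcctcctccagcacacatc
Ptx3 (chr3:66219637-66219886, plus strand): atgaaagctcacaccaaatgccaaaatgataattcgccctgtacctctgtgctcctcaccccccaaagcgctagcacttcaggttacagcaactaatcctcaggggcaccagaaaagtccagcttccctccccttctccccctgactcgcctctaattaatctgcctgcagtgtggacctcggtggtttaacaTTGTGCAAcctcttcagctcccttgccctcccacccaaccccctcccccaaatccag
Of 7 motifs searched on both strands in this window, the C/EBP motif TTNNGCAA was present in all 5 members with an entry in the promoter set used (Saa3, Saa1, Saa2, Lcn2 and Ptx3), and in 9.56% of all 32851 promoters of the same length. Hp and Lbp had no usable entry in that set and were not searched. The match began 99 bases before the start in Saa3, 182 in Saa1, 183 in Saa2, 216 in Lcn2 and 57 in Ptx3, and overlapped no match to another motif. The letters of NF-kappaB (GGGA and CC with any 4 bases between them), STAT (TTCNNNGAA), AP-1 (TGANTCA) and TATA box (TATAAA) motifs were in none of the 5 windows, and were in 17.6%, 7.02%, 6.75% and 12.4% of all promoters. A second NF-kappaB form (GGG and TTCC with any 3 bases between them) and a narrower STAT form (TTCCNGGAA, a subset of the first) were in none of the 5 windows either, and in 4.65% and 0.913% of all promoters. The motif to show in capitals was chosen after these matches were seen. The Saa1 and Saa2 windows were 94.8% identical to each other, and the Saa3 window was 44.7% identical to that of Saa1. Likewise 31.5% of the 50-base words of Saa1 transcripts and 30.0% of those of Saa2 recur in another gene, Saa2 and Saa3 for Saa1 and Saa1 for Saa2, against 3.57% for Saa3, so reads of Saa1 and Saa2 cannot be assigned with certainty.

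Library totals were 17.3 to 22.3 Mcounts (M, mega) in the untreated fibroblasts, 14.5 to 18.8 in the MGT and LacZ cells, 14.3 to 18.4 in the overexpression and 39.7 to 43.4 in the knockdown table. Of counts of 10 or more, 57.6 to 58.9% were even in the knockdown libraries, against 49.96 to 51.2% in the other bulk libraries. The cause of this excess of even counts was not tested. All 8 fibroblast markers were present in every table, with a summed level of 2801 to 17177 CPM (counts scaled to the library's effective size). Neutrophils carry haptoglobin and lipocalin 2 in their granules, and the 8 neutrophil markers summed to at most 5.72 CPM in any bulk library. The 5 hepatocyte markers summed to at most 1.08 CPM outside the overexpression table. In bulk libraries fewer cells that make a transcript and less of it per cell cannot be told apart. Levels across genes are given per kilobase of the gene's exons, and all other levels are CPM.

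In untreated fibroblasts, Saa3, Hp, Lcn2, Lbp and Ptx3 were far lower in neonatal cultures than at 3, 12 or 24 months, and Saa3, Hp and Lbp were highest at 24 months. Every adult library had more of each of these 5 genes than either neonatal library. How many of all genes tested separate in this way was not counted. Saa1 and Saa2 stayed close to 0 at all ages. Against neonatal cells, 5 of the 6 tested members were called higher (adjusted p under 0.05 in edgeR's quasi-likelihood test with Benjamini-Hochberg adjustment) at each of 3, 12 and 24 months, where 28, 29.7 and 27.9% of all genes tested were called higher, 24.4, 25.5 and 26.6% lower, and 52.5, 55.2 and 54.5% in either direction. Saa3, Hp and Lcn2 passed the filter on low counts only through their adult libraries, so that their count is a description. Among adult ages, 1 member was called higher and 3 lower at 12 than at 3 months (13 and 15.5% of all genes, 28.5% in either direction), 4 higher and 1 lower at 24 than at 3 months (8.85 and 9.47%, 18.3% in either direction), and 4 higher and 0 lower at 24 than at 12 months (10.8 and 8.07%, 18.9% in either direction). Saa1, which passed the filter through its 3-month libraries, is 1 of the members counted as lower at 12 and at 24 than at 3 months.

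Saa3 had 0.515 and 0.227 CPM in the 2 neonatal libraries (11 and 4 counts), 64.0 and 65.6 CPM at 3 months, 50.8 and 36.9 CPM at 12 months, and 130.5 and 156 CPM at 24 months. The 24-month libraries stand above all others, and the 12-month libraries lie below those of 3 months. Because Saa3 passed the filter through its adult libraries, its fitted log2 differences from neonatal cells (7.37 at 3 months, 6.80 at 12 months and 8.52 at 24 months) are given with no test. At 24 months Saa3 was higher than at 12 months by 1.72 ± 0.17 log2 units (adjusted p = 0.0017, edgeR) and higher than at 3 months by 1.15 ± 0.16 (adjusted p = 0.0065). The second of these calls was lost without either 3-month library (adjusted p = 0.0689 without replicate 1 and 0.0677 without replicate 2). Between 12 and 3 months the difference of -0.57 did not pass (adjusted p = 0.0727), but did when no filter was used (0.0050) and when the 2 ages were fitted alone (0.0138).

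Of the liver forms, Saa1 had 4 and 13 counts in neonatal libraries, 30 and 12 at 3 months, 3 and 1 at 12 months, and 1 and 4 at 24 months. Both 3-month libraries, with 42 counts together, and 1 neonatal library were over the cutoff of the filter on low counts, and no 12-month or 24-month library was. Saa1 thus passed through the group where it was highest, and its fitted log2 differences of -3.11 for 12 against 3 months and -2.97 for 24 against 3 months are given with no test. Saa2 had at most 4 counts in any bulk library of the series and passed the filter in no table; with no filter, its lowest adjusted p in any comparison was 0.243 (edgeR).

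Among the carrier and binding proteins, Hp had 0 and 5 counts in the neonatal libraries, then 37.0 and 36.0 CPM at 3 months, 35.7 and 29.2 CPM at 12 months, and 83.4 and 78.6 CPM at 24 months. Both 24-month libraries exceed all younger ones. Hp was 1.15 ± 0.085 log2 units higher at 24 than at 3 months (adjusted p = 4.2e-10, edgeR) and 1.32 ± 0.088 higher at 24 than at 12 months (adjusted p = 5.7e-11). Lbp had 4.03 and 2.78 CPM in neonatal libraries, 60.3 and 66.0 CPM at 3 months, 44.8 and 36.8 CPM at 12 months, and 88.2 and 95.5 CPM at 24 months. It follows the order seen for Saa3, with a dip at 12 months (12 versus 3 months -0.63 ± 0.082, adjusted p = 2.1e-06, edgeR) and the highest value at 24 months (24 versus 12 months 1.17 ± 0.080, adjusted p = 1.2e-10). Lcn2 had 0.375 and 0.398 CPM in neonatal libraries, 34.5 and 38.7 CPM at 3 months, 22.2 and 16.1 CPM at 12 months, and 25.5 and 35.6 CPM at 24 months. Its 24-month values overlap those of 3 months (-0.26, adjusted p = 0.383, edgeR), and its lowest adult values are at 12 months (12 versus 3 months -0.94 ± 0.18, adjusted p = 0.0045). The difference between 24 and 12 months (0.68 ± 0.18, adjusted p = 0.0343) was lost when the 2 ages were fitted alone (0.139) and without 12-month replicate 2 (0.0766).

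Ptx3, the pentraxin, had 29.1 and 31.2 CPM in neonatal libraries, 1659 and 1569.6 CPM at 3 months, 2309 and 2217 CPM at 12 months, and 2358 and 2286 CPM at 24 months. Its log2 fold change against neonatal cells was 5.74 ± 0.053 at 3 months (adjusted p = 9.9e-38, edgeR) and 6.27 ± 0.053 at 24 months (1.5e-38). The values at 12 and 24 months overlap (0.04, adjusted p = 0.586), and both ages lie above 3 months by 0.49 ± 0.039 and 0.52 ± 0.039. Per kilobase, Ptx3 was the most abundant member at every age, with 11.2 ± 0.56 CPM per kilobase (SD, n = 2) in neonatal, 602 ± 24 in 3-month, 844 ± 24 in 12-month and 866 ± 19 in 24-month cells. At 24 months it was followed by Saa3 (55.0 ± 7.0) and Hp (50.4 ± 2.1), which do not differ beyond their spread, then Lbp (19.01 ± 1.1) and Lcn2 (11.6 ± 2.7).

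**Figure D1:**
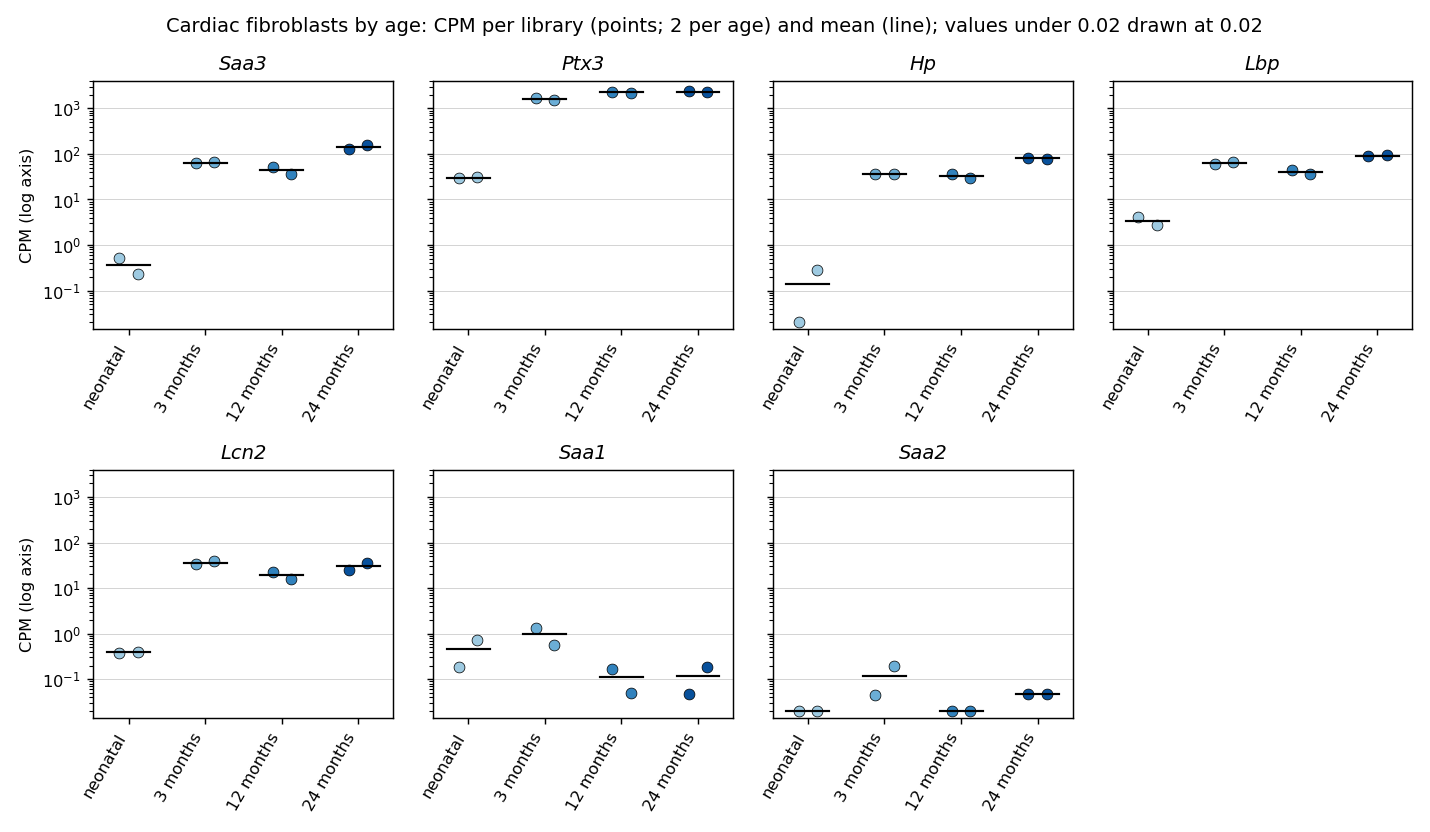
Level of the 7 genes in untreated cardiac fibroblasts, in CPM on a log axis, by age of the mice from neonatal to 24 months; points are the 2 libraries per age and lines their means, and values under 0.02 CPM are drawn at 0.02. Saa3, Ptx3, Hp, Lbp and Lcn2 are lowest in neonatal cells, while Saa1 and Saa2 reach at most 1.35 CPM at any age.

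Of 16 other acute-phase proteins, 7 were tested; 4 of them rose and 1 fell at 3 months against neonatal cells, with a median log2 fold change of 4.06 against 0.01 over all genes tested. C3, the central complement component, averaged 1332 CPM at 3 months and 2161 CPM at 24 months, against 9.25 CPM in neonatal cells. The ferrireductase Steap4 averaged 54.6 CPM at 3 months and 0.368 CPM in neonatal cells, ceruloplasmin (Cp), a copper-carrying ferroxidase, averaged 641 CPM at 3 months and 38.4 CPM in neonatal cells, and the protease inhibitor Serpina3n averaged 466 CPM at 3 months and 20.7 CPM in neonatal cells. Among the 19 inducers and signalling genes, 15 of 18 tested rose and 1 fell at 3 months (median 1.08, against 0.01 over all genes tested), and 17 rose and none fell at 24 months (median 1.32, against -0.01). They include interleukin 6 (Il6, 126.8 CPM at 3 months and 22.2 CPM in neonatal cells), Lif (116 CPM at 3 months and 27.0 CPM in neonatal cells), the receptor Il1r1 (392 CPM at 3 months and 125 CPM in neonatal cells) and gp130 (Il6st, 1757 CPM at 3 months and 687 CPM in neonatal cells). Of the 13 receptors and binding partners, 10 were tested, and 5 rose and 4 fell at 3 months (median 0.38). Tlr2 averaged 18.2 CPM at 3 months and 6.21 CPM in neonatal cells. Lrp2, an endocytic receptor for lipocalin 2, averaged 0.229 CPM at 3 months and 6.55 CPM in neonatal cells. Steap4 in neonatal cells and Lrp2 at 3 months averaged less than the cutoff of the filter on low counts. Both passed it through ages where they were higher, so their part in these counts and medians is a description. How many other genes of these lists passed in that way was not counted. Over all genes tested, 28% were called higher and 24.4% lower at 3 months, and 27.9 and 26.6% at 24 months. Marker levels of other cells differed between the ages as well. The 6 endothelial markers summed to 66.6 to 161 CPM in adult and 918 to 928 CPM in neonatal libraries. The 6 cardiomyocyte markers summed to 8.72 to 28.6 CPM in adult and 961 to 1038 CPM in neonatal libraries. The 6 mesothelial markers summed to 1.19 to 4.18 CPM in adult and 153 to 155 CPM in neonatal libraries. The 5 pericyte markers summed to 93.4 to 172 CPM in adult and 498 to 518 CPM in neonatal libraries. The 8 macrophage markers summed to 145 to 249.8 CPM in adult and 325 CPM in both neonatal libraries. Adipocyte and neutrophil markers were higher in adult libraries. The 5 adipocyte markers, of which 1 reached 1 CPM, summed to 23.0 to 40.1 CPM in adult and 10.8 to 12.2 CPM in neonatal libraries. The 8 neutrophil markers summed to 1.80 to 3.04 CPM in adult and 0.738 to 1.31 CPM in neonatal libraries. The part of all these cells in the age differences was not tested.

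In MGT cells, Saa3 was higher than in LacZ cells at 3 and 18 months, and the LacZ cells of 18 months had the lowest level of the 6 groups. Hp was higher with MGT at 18 months and lower in neonatal cells. Lcn2, Lbp and Ptx3 were called lower with MGT at 1 or 2 of the 3 ages each and were not called higher at any. Of the 5 members tested, 3 were called in neonatal cells (0 higher and 3 lower), 3 at 3 months (1 higher and 2 lower) and 3 at 18 months (2 higher and 1 lower), where 7.51, 17.4 and 16.6% of all genes tested were called in either direction, 4.26, 8.99 and 8.52% higher and 3.24, 8.39 and 8.05% lower. Saa1 and Saa2 had at most 2 counts in any of these 12 libraries.

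Saa3 had 129 and 152 CPM in neonatal MGT cells, against 127 and 96.2 CPM in neonatal LacZ cells. At 3 months it had 436 and 637 CPM in MGT cells and 96.7 and 104 CPM in LacZ cells. At 18 months it had 106 and 120.3 CPM in MGT cells and 7.70 and 8.08 CPM in LacZ cells. The neonatal libraries lie close together, and the adult MGT libraries stand clear of their LacZ libraries. The log2 fold change, MGT over LacZ, was 0.34 ± 0.19 in neonatal cells (adjusted p = 0.463, edgeR; 0.0139 with no filter), 2.42 ± 0.19 at 3 months (2.0e-05) and 3.85 ± 0.24 at 18 months (5.0e-06), that is 5.34-fold and 14.4-fold at the 2 adult ages. The effect itself differed from that in neonatal cells by 2.08 ± 0.27 log2 units at 3 months (adjusted p = 0.0025, interaction term, edgeR) and by 3.51 ± 0.30 at 18 months (2.5e-04), in interactions where 3.7 and 2.82% of all genes tested were called (2.28 and 2.03% higher). Of the 5 members tested, 2 and 3 were called in these interactions, all with a more positive effect in adult cells. The 3-month difference was lost without 3-month LacZ replicate 2 (0.0507). Between 18 and 3 months the effects differed by 1.43 ± 0.30 with adjusted p = 0.0506, which does not pass; over its alternatives the adjusted p ranged from 3.2e-14 with no filter to 0.259 without 18-month LacZ replicate 1.

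Hp had 7.13 and 8.05 CPM in neonatal MGT cells, against 15.8 and 14.1 CPM in neonatal LacZ cells. It had 118 and 167 CPM in 3-month MGT cells and 177 and 193 CPM in 3-month LacZ cells. It had 19.1 and 19.8 CPM in 18-month MGT cells, against 4.34 and 6.28 CPM in 18-month LacZ cells. The groups do not overlap at any age, and the sign at 18 months is opposite to that in neonatal cells. The log2 fold change was -0.98 ± 0.18 in neonatal cells (adjusted p = 0.0021, edgeR), -0.38 ± 0.13 at 3 months (0.0582; 0.0140 with the replicate block, 0.0023 with no filter and 0.0010 without 3-month MGT replicate 2) and 1.88 ± 0.19 at 18 months (2.7e-06). The effect at 18 months exceeded that in neonatal cells by 2.85 ± 0.27 (adjusted p = 5.0e-06) and that at 3 months by 2.26 ± 0.24 (6.6e-05), in comparisons where 2.82 and 2.34% of all genes tested were called. Between the 2 adult ages 2 of 5 members were called, both with a more positive effect at 18 months (1.56% of all genes tested; 0.782% had a lower effect).

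Lcn2 had 40.0 and 39.5 CPM in neonatal MGT cells, against 63.3 and 65.9 CPM in neonatal LacZ cells (log2 fold change -0.70 ± 0.090, adjusted p = 2.9e-06, edgeR). In 3-month cells it had 144 and 151 CPM with MGT and 134 and 148 CPM with LacZ, and in 18-month cells 28.6 and 28.4 CPM with MGT and 26.6 and 27.2 CPM with LacZ. The neonatal groups are apart and the adult groups nearly coincide; the effect differed from the neonatal one by 0.76 ± 0.12 at 3 months (adjusted p = 2.7e-04) and 0.79 ± 0.13 at 18 months (5.2e-04). Lbp had 14.3 and 17.7 CPM in 3-month MGT cells and 33.4 and 29.8 CPM in 3-month LacZ cells (-0.98 ± 0.15, adjusted p = 2.2e-05, edgeR). In neonatal cells it had 6.12 and 4.597 CPM with MGT, against 8.14 and 10.1 CPM with LacZ (-0.77 ± 0.19, adjusted p = 0.0078), a call lost without LacZ replicate 2 (0.203) or MGT replicate 2 (0.200). At 18 months the Lbp groups overlap (-0.04, adjusted p = 0.906), with 13.5 and 11.2 CPM in MGT cells and 11.8 and 13.8 CPM in LacZ cells. The effect on Lbp at 18 months exceeded that at 3 months by 0.94 ± 0.22 (adjusted p = 0.0202), a call lost without 3-month MGT replicate 1 (0.185), 18-month MGT replicate 1 (0.125) or 18-month LacZ replicate 1 (0.168). Ptx3 was lower with MGT at 3 months, with 1363 and 1410.1 CPM against 1801 and 2210.0 CPM in LacZ cells (-0.53 ± 0.099, adjusted p = 3.2e-04, edgeR). It was also lower at 18 months, with 1679 and 1428 CPM in MGT cells and 2375 and 2477 CPM in LacZ cells (-0.64 ± 0.099, 5.2e-05). In neonatal cells Ptx3 had 156 and 130.2 CPM with MGT and 165 and 164 CPM with LacZ, which did not pass (-0.20, adjusted p = 0.339).

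**Figure D2:**
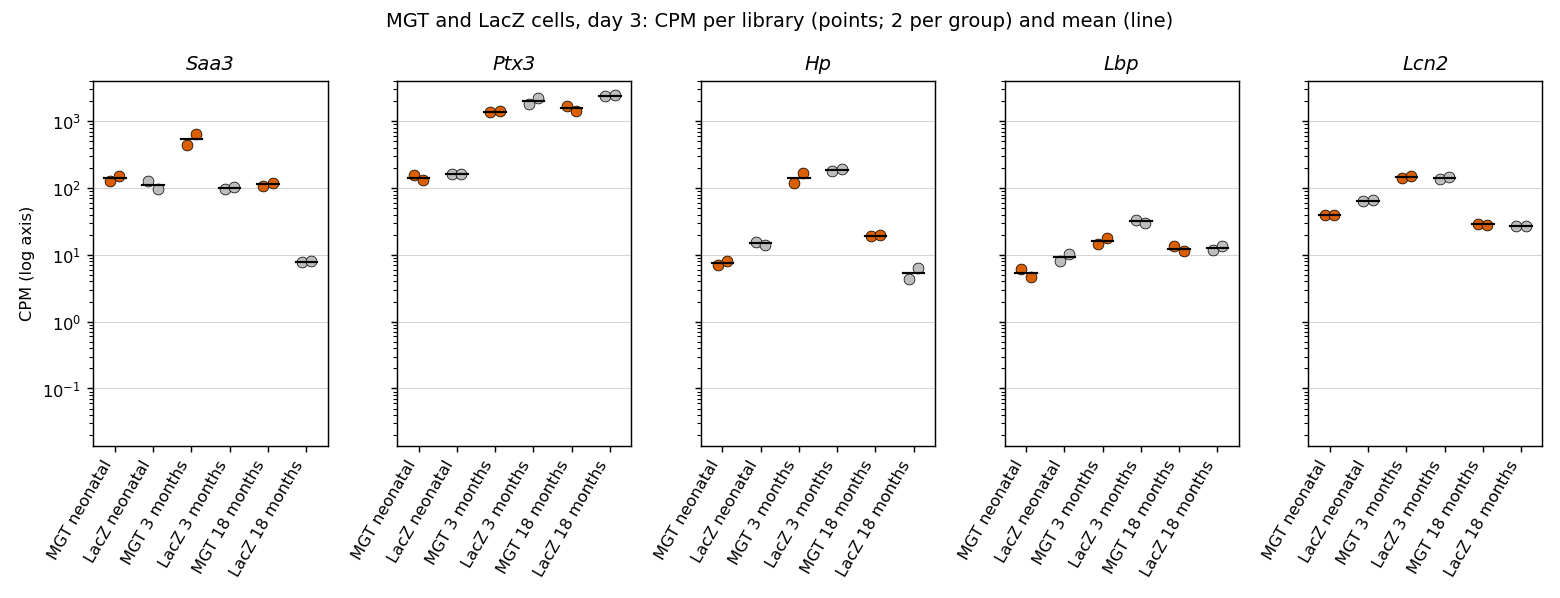
Level of 5 acute-phase genes in MGT and LacZ cells at day 3, in CPM on a log axis; orange points are MGT and grey points LacZ libraries (2 per group), lines are means, and ages run from neonatal to 18 months. Saa3 in 18-month LacZ cells (7.70 and 8.08 CPM) lies below every other group, and Ptx3 is separated by age more than by MGT.

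**Figure D3:**
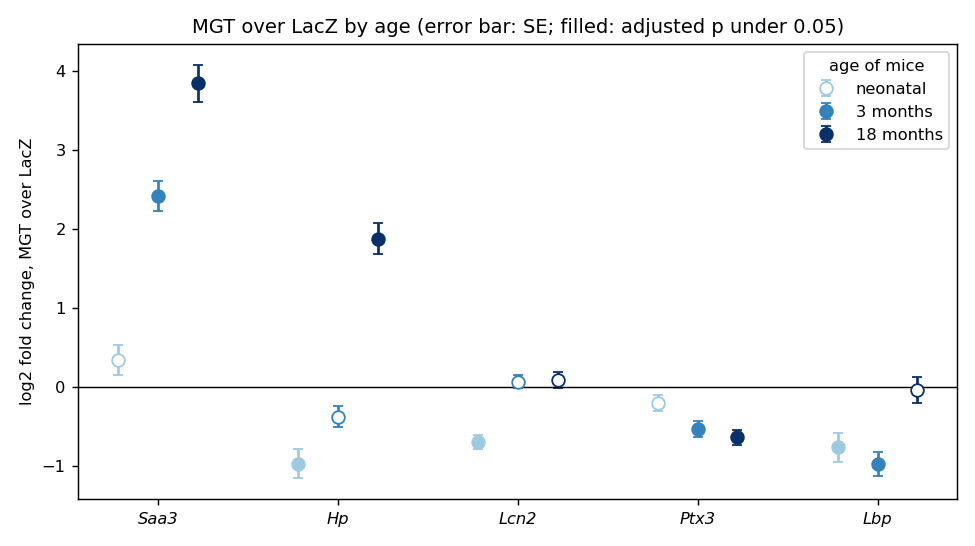
Log2 fold change, MGT over LacZ, for 5 genes at 3 ages; error bars are SE and filled points have adjusted p under 0.05. At 18 months Saa3 and Hp stand at 3.85 and 1.88, and the effect on Lcn2 passes in neonatal cells alone.

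Other acute-phase proteins did not all move with Saa3. Of 6 tested, hemopexin (Hpx), a haem-binding plasma protein, averaged 20.5 CPM in MGT and 1.02 CPM in LacZ cells at 3 months (4.32 ± 0.25, adjusted p = 8.3e-13, edgeR) and 12.1 CPM in MGT and 0.743 CPM in LacZ cells at 18 months (4.002 ± 0.27, 3.3e-11). Cp fell with MGT at all 3 ages, by 1.06, 0.99 and 0.84 log2 units from neonatal to 18 months. Among the 19 inducers and signalling genes, 3 rose and 3 fell in neonatal cells, 4 rose and 7 fell at 3 months and 3 rose and 5 fell at 18 months, with medians of -0.04, -0.13 and -0.22 against -0.01, -0.01 and 0.01 over all genes tested; Lif rose and Il1r1 and Il6st fell with MGT at each age. Of 11 receptors and binding partners tested, 6 rose and 0 fell at 18 months (median 0.70). Among them were Tlr4 (78.6 CPM in MGT and 47.7 CPM in LacZ cells) and Tlr2 (18.8 CPM in MGT and 10.3 CPM in LacZ cells). Over all genes tested, 4.26, 8.99 and 8.52% were called higher in neonatal, 3-month and 18-month cells, and 3.24, 8.39 and 8.05% lower. Markers of other cells moved with MGT as well. Mesothelial markers summed to 88.0 to 92.7 CPM in MGT and 8.62 to 9.25 CPM in LacZ libraries at 3 months and to 68.7 to 77.4 CPM in MGT and 13.7 to 14.9 CPM in LacZ libraries at 18 months. In neonatal cells they summed to 332 to 357 CPM in MGT and 654 to 713 CPM in LacZ libraries. Pericyte markers summed to 42.7 to 50.8 CPM in MGT and 21.2 to 34.9 CPM in LacZ libraries at 3 months and to 82.7 to 100.1 CPM in MGT and 25.2 to 26.7 CPM in LacZ libraries at 18 months. Cardiomyocyte markers summed to 289 to 364 CPM in adult MGT and 2.92 to 4.86 CPM in adult LacZ libraries. Macrophage markers summed to 381 to 452 CPM in MGT and 342 to 365 CPM in LacZ libraries at 18 months. They summed to 416 to 428 CPM in MGT and 324 to 329.6 CPM in LacZ libraries at 3 months. The part of these cells in these differences was not tested.

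Within LacZ cells, age moved the members in different directions. Against neonatal LacZ cells, 4 of 5 tested members were called higher and 0 lower at 3 months (30.9% of all genes called in either direction, 15.1% higher and 15.8% lower), and 2 higher and 3 lower at 18 months (35%, 16.7% higher and 18.3% lower). Saa3 had a log2 fold change of -0.15 at 3 months, which does not pass (adjusted p = 0.612, edgeR), and of -3.82 ± 0.24 at 18 months (1.3e-06). Hp rose at 3 months (3.63 ± 0.16, adjusted p = 7.7e-12) and fell at 18 months, to a mean of 5.31 CPM, against 14.9 CPM in neonatal LacZ cells (1.2e-05). Lcn2 also rose at 3 months (1.13 ± 0.086) and fell at 18 months (-1.27 ± 0.093), whereas Ptx3 rose at both ages (3.61 ± 0.11 and 3.88 ± 0.11). The call of Lbp at 18 months (0.48, adjusted p = 0.0275) was lost without neonatal LacZ replicate 1 (0.272) or 18-month LacZ replicate 2 (0.215). Between 18 and 3 months, 4 of 5 were called lower and 1 higher (23% of all genes called, 10.8% higher and 12.2% lower), with Hp at -5.13 ± 0.18, Saa3 at -3.67 ± 0.24, Lcn2 at -2.39 ± 0.093 and Lbp at -1.31 ± 0.15; the call of Ptx3 (0.27, adjusted p = 0.0465) was lost with the replicate block (0.0600), with the 2 groups fitted alone (0.178) and without 3-month replicate 1 or either 18-month replicate (0.315, 0.0974 and 0.186). Fibroblast markers summed to 12308 to 12580.2 CPM in neonatal, 12024 to 12689.7 CPM in 3-month and 7457 to 8280.3 CPM in 18-month LacZ libraries. Endothelial markers summed to 303 to 335 CPM in neonatal, 15.2 to 16.1 CPM in 3-month and 7.35 to 12.7 CPM in 18-month LacZ libraries. Mesothelial markers summed to 654 to 713 CPM in neonatal, 8.62 to 9.25 CPM in 3-month and 13.7 to 14.9 CPM in 18-month LacZ libraries. Cardiomyocyte and pericyte markers were highest in the neonatal libraries too (285 to 333 and 223 to 226 CPM, against at most 4.86 and 34.9 CPM in adult LacZ libraries). Macrophage markers summed to 209 to 265 CPM in neonatal, 324 to 329.6 CPM in 3-month and 342 to 365 CPM in 18-month LacZ libraries. Adipocyte markers summed to 9.85 to 9.86 CPM in neonatal, 31.8 to 33.6 CPM in 3-month and 24.6 to 25.1 CPM in 18-month LacZ libraries. Neutrophil markers summed to 0.968 to 1.65, 4.94 to 5.49 and 3.24 to 4.47 CPM in the same order. The part of all these cells in the age differences of LacZ cells was not tested.

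Within MGT cells, 5 of 5 tested members were called higher at 3 months than in neonatal cells (26.1% of all genes called, 12.5% higher and 13.5% lower). At 18 months 3 were higher and 1 lower than in neonatal cells (30.6%, 14.4% higher and 16.2% lower), and 0 were higher and 3 lower than at 3 months (17.4%, 8.12% higher and 9.29% lower). Hp was 4.23 ± 0.17 log2 units higher at 3 months (adjusted p = 4.4e-12, edgeR), Ptx3 3.28 ± 0.11, Saa3 1.93 ± 0.19, Lcn2 1.89 ± 0.090 and Lbp 1.57 ± 0.18. At 18 against 3 months Hp (-2.87 ± 0.15), Lcn2 (-2.37 ± 0.093) and Saa3 (-2.24 ± 0.19) fell, and Ptx3 (0.16, adjusted p = 0.291) and Lbp (-0.37, 0.132) did not pass. These comparisons share libraries with each other and with those of MGT against LacZ. Per kilobase, Ptx3 led in every group of this table but the neonatal MGT cells, where Saa3 (54.0 ± 6.2 CPM per kilobase, SD, n = 2) and Ptx3 (53.3 ± 6.8) did not differ beyond their spread. In 3-month MGT cells Ptx3 (517 ± 12) was followed by Saa3 (206 ± 54), Hp (88.5 ± 21), Lcn2 (56.2 ± 2.1) and Lbp (3.31 ± 0.50), and neighbours in that order did not overlap.

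Over the 12 libraries of MGT and LacZ cells, the genes whose log2 CPM was most like that of a member, among 9767 genes compared, were Fkbp14, Col5a2 and Bace2 for Saa3 (Pearson r of 0.96, 0.96 and 0.95), Ccl2, Olr1 and Trf for Lcn2 (0.98, 0.98 and 0.95), Hs3st1, H2-T22 and Serpina3n for Hp (0.96 for each), Emilin2, Pcolce2 and Pdpn for Ptx3 (0.995 for each) and Islr, Gda and B4galt5 for Lbp (0.97 for each). The 12 points fall into 6 groups of 2, so the coefficients describe these libraries and carry no p.

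In neonatal fibroblasts with overexpressed Nr4a3, Saa3, Hp and Ptx3 were lower, all at low levels, and Lbp was not changed in call. Nr4a3 itself had 175 to 178 CPM in OENr4a3 libraries and 1.85 to 2.49 CPM in OECtrl libraries. Of 4 members tested, 3 were called lower, where 22.7% of all genes tested were called in either direction, 11.9% higher and 10.8% lower. For Hp both OECtrl libraries but only 1 OENr4a3 library were over the filter's cutoff, so Hp passed through the group where it was high and its difference is given with no test. Saa3 had 1.54 and 1.67 CPM in OENr4a3 cells, against 3.80 and 4.18 CPM in OECtrl cells (-1.31 ± 0.27, adjusted p = 0.0122, edgeR). Hp had 12 and 3 counts in OENr4a3 cells, against 27 and 44 counts in OECtrl cells (fitted log2 difference -2.43). Ptx3 had 6.05 and 6.001 CPM in OENr4a3 cells and 9.61 and 9.80 CPM in OECtrl cells (-0.69 ± 0.17, adjusted p = 0.0209). For each of these genes both OENr4a3 libraries lie below both OECtrl libraries. The share of all genes tested with such a separation was not counted. Lbp had 28.6 and 25.6 CPM in OENr4a3 cells and 24.0 and 26.6 CPM in OECtrl cells, which overlap (0.10, adjusted p = 0.608), and Lcn2 had 5 and 6 counts in OENr4a3 and 1 and 3 counts in OECtrl cells and did not pass the filter (1.22 with no filter, adjusted p = 0.603, edgeR). Without OENr4a3 replicate 1, Saa3 (0.0580) and Ptx3 (0.136) lost their calls; without OENr4a3 replicate 2, Ptx3 (0.147) did; and DESeq2 put Ptx3 at an adjusted p of 0.0543. The hepatocyte markers moved with these calls: the 5 genes summed to 0.0550 and 0.222 CPM in OENr4a3 libraries and to 42.3 and 31.7 CPM in OECtrl libraries, with albumin (Alb) at 0.0275 CPM in OENr4a3 and 26.0 CPM in OECtrl cells on average. Macrophage markers summed to 617 to 639.8 CPM in OENr4a3 and 942 to 959 CPM in OECtrl libraries. Mesothelial markers summed to 437 to 468 CPM in OENr4a3 and 969.7 to 1030.2 CPM in OECtrl libraries. Cardiomyocyte markers summed to 261 to 289.7 CPM in OENr4a3 and 451 to 496 CPM in OECtrl libraries. Adipocyte markers summed to 6.22 to 6.60 CPM in OENr4a3 and 12.99 to 14.6 CPM in OECtrl libraries. Pericyte markers, which were higher, summed to 120.0 to 127 CPM in OENr4a3 and 51.7 to 69.3 CPM in OECtrl libraries. The part of these cells in the lower Hp, Saa3 and Ptx3 was not tested.

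The other acute-phase proteins split in the overexpression experiment: of 11 tested, 2 rose and 5 fell (median -1.02, against -0.01 over all genes tested). Serpina3n averaged 414 CPM in OENr4a3 and 92.5 CPM in OECtrl cells (2.16 ± 0.12, adjusted p = 1.3e-05, edgeR) and Cp 90.8 CPM in OENr4a3 and 33.0 CPM in OECtrl cells (1.46 ± 0.12, 1.8e-04), while Steap4 averaged 1.77 CPM in OENr4a3 and 8.89 CPM in OECtrl cells (-2.33 ± 0.22, 2.6e-04). The fibrinogen chain Fgb, a liver product, had no count in OENr4a3 libraries and averaged 1.65 CPM in OECtrl libraries. Fgb thus passed the filter on low counts through the OECtrl libraries alone. How many of the 11 genes passed in that way was not counted, so the number that fell and the median are a description. Of 18 inducers and signalling genes tested, 2 rose (Il6st and Osmr) and 2 fell (Lif and Il6). Of all genes tested, 11.9% were called higher and 10.8% lower, so these 18 genes were called about as often as genes at large.

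In 3-month MGT cells with the Nr4a3 hairpin, Ptx3 and Lbp were lower and Saa3 was not changed in call. Nr4a3 had 0.431 to 0.743 CPM in MGT+shNr4a3 libraries and 8.17 to 8.83 CPM in MGT+shNT libraries. Of 5 members tested, 2 were called, both lower, where 54.5% of all genes tested were called in either direction, 27.9% higher and 26.7% lower, so members were not called more often than genes at large. Ptx3 had 40.6 and 34.3 CPM in MGT+shNr4a3 cells, against 223 and 199 CPM in MGT+shNT cells (-2.49 ± 0.10, adjusted p = 8.1e-10, edgeR; 5.63-fold lower). Lbp had 0.287 and 1.07 CPM in MGT+shNr4a3 cells (12 and 46 counts) and 3.70 and 3.68 CPM in MGT+shNT cells (-2.43 ± 0.44, adjusted p = 5.3e-04). For both genes the MGT+shNr4a3 libraries lie below the MGT+shNT libraries, a separation not counted over all genes tested. Saa3 had 5.50 and 4.14 CPM in MGT+shNr4a3 cells and 6.75 and 4.81 CPM in MGT+shNT cells, which overlap (-0.26, adjusted p = 0.344). Hp had 1.24 and 1.39 CPM in MGT+shNr4a3 cells, against 3.23 and 1.48 CPM in MGT+shNT cells (-0.83, adjusted p = 0.0789; 0.0390 with no filter and 0.0043 without MGT+shNT replicate 2). Lcn2 had 0.383 and 0.743 CPM in MGT+shNr4a3 cells and 0.347 and 0.417 CPM in MGT+shNT cells (0.56, adjusted p = 0.464).

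Ptx3 was lower both with Nr4a3 overexpressed and with the Nr4a3 hairpin; the experiments differ in age, MGT and day and were not compared by a test. Of 7 other acute-phase proteins tested in the knockdown, 0 rose and 6 fell (median -2.17, against 0.01 over all genes tested), including C3 (67.9 CPM in MGT+shNr4a3 and 306 CPM in MGT+shNT cells), Serpina3n (7.86 CPM in MGT+shNr4a3 and 60.7 CPM in MGT+shNT cells) and Itih4 (0.285 CPM in MGT+shNr4a3 and 3.46 CPM in MGT+shNT cells). Over all genes tested in the knockdown, 27.9% were called higher and 26.7% lower. Of 16 inducers and signalling genes, 2 rose and 9 fell (median -0.85). Il1r1 averaged 8.90 CPM in MGT+shNr4a3 and 51.6 CPM in MGT+shNT cells. Osmr averaged 38.6 CPM in MGT+shNr4a3 and 136.5 CPM in MGT+shNT cells, and Stat3 32.1 CPM in MGT+shNr4a3 and 98.8 CPM in MGT+shNT cells. Fibroblast markers moved with these calls, summing to 2801 to 2948 CPM in MGT+shNr4a3 and 4283 to 4423 CPM in MGT+shNT libraries, as did cardiomyocyte markers (5214 to 6064 CPM in MGT+shNr4a3 and 9344 to 10932 CPM in MGT+shNT libraries). Pericyte markers summed to 52.3 to 55.9 CPM in MGT+shNr4a3 and 27.6 to 28.7 CPM in MGT+shNT libraries. Macrophage markers summed to 109 to 114 CPM in MGT+shNr4a3 and 122 to 155 CPM in MGT+shNT libraries; the part of these cells was not tested.

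**Figure D4:**
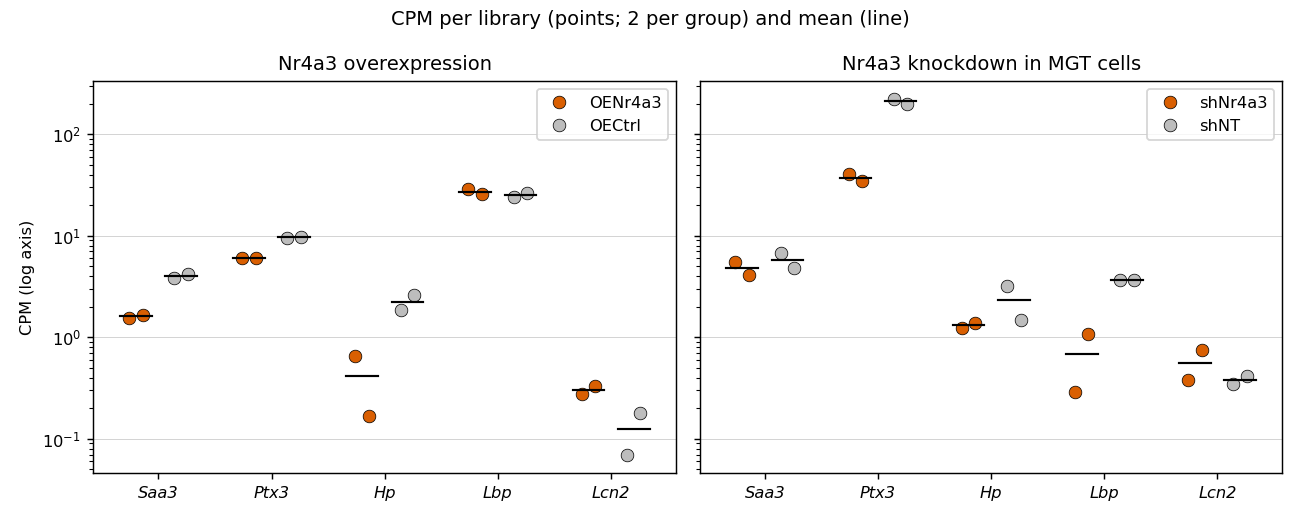
Level of 5 acute-phase genes with Nr4a3 overexpressed (left) or knocked down in MGT cells (right), in CPM on a log axis; orange points are OENr4a3 or shNr4a3 libraries, grey points OECtrl or shNT libraries (2 per group), and lines are means. Ptx3 is lower than its counterpart in both panels, and Lbp in the right panel alone.

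The single-cell libraries held 6796 barcodes from 24-month and 4816 from neonatal cells, of which 5773 and 3828 were kept (500 genes or more, mitochondrial share up to 20%), with medians of 20771 and 13960 UMIs per cell; 11 barcodes occurred in both libraries. With 1 library per age there is no test between ages, intervals cover counting error only, and no doublet caller was run. Cells were clustered without the 7 genes. Of 12 clusters, clusters 3 and 0 (1527 and 1378 of the 24-month cells) and cluster 9 (922 neonatal cells) had all 8 fibroblast markers detected, in at least 25% of cells, without a marker type of their own. This grouping was made after the clusters were seen, and the rule fixed for names left these clusters unnamed, since fibroblast markers were also found in others. Cluster 5 was macrophage-like (711 cells of 24-month and 199 of neonatal origin), cluster 8 endothelial-like (19 and 79) and cluster 10 cardiomyocyte-like (16 and 922). Cluster 6 (93 cells of 24-month origin) met the macrophage rule too, but had 7 of 8 fibroblast markers besides 8 of 8 macrophage markers and the second highest median UMI count, and is called by its number; the part of doublets in it was not tested. Clusters 1, 2, 4, 7 and 11 had low UMI counts and are not described.

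Before the levels, 15 neonatal barcodes in clusters 3 and 0 stand out, none of them shared with the 24-month library. Xist, transcribed from the inactive X chromosome, had 1.72 CPM in these 15 cells, against 169.8 CPM in the other neonatal cells and 0.0322 CPM in the 24-month cells of the same clusters. C3 had 565, 6.72 and 383 CPM in the same order of cells. These 15 barcodes held 49.2% of all neonatal Saa3 UMIs and 92.8% of all neonatal Hp UMIs. Neonatal values are therefore given without them as well as with them; the origin of these barcodes was not tested.

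In single MGT cells, Hp, Ptx3 and Saa3 were abundant in 24-month cells with fibroblast markers and scarce in neonatal cells with the same markers. Over the clusters with all fibroblast markers, Saa3 had 101.6 CPM in 24-month cells (95% Poisson interval 99.9 to 103), against 5.26 CPM in neonatal cells, or 1.87 CPM without the 15 barcodes. Without those barcodes, 108 of the 115 neonatal Saa3 UMIs came from 1 cell. Hp had 189.9 CPM in 24-month cells and 3.35 CPM in neonatal cells, or 0.0162 CPM (1 UMI) without them. These 2 genes are the ones whose neonatal value rests mostly on the 15 barcodes. Ptx3 had 173 CPM in 24-month cells and 12.3 CPM in neonatal cells (10.4 without them), and Lbp 38.1 CPM in 24-month and 2.21 CPM in neonatal cells (1.67 without them). Lcn2 was low in both, at 1.94 CPM in 24-month and 1.01 CPM in neonatal cells, and 52 of its 63 neonatal UMIs came from 1 cell. Saa1 had 15 UMIs and Saa2 had 1 among all kept 24-month cells, against 2 and 0 among neonatal cells; 0 of 3828 cells allows a share of up to 0.0784% of cells with a Saa2 UMI, which is no limit on cells that express the gene.

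The clusters also differed among themselves. In 24-month cells, Saa3 had 156.9 CPM in cluster 3 and 57.6 CPM in cluster 0, and Hp 262 CPM in cluster 3 and 132.8 CPM in cluster 0, whereas Ptx3 (193.5 and 156 CPM) and Lbp (44.8 and 33.0 CPM) lay closer together. Saa3 and Hp are among the 10 leading genes of cluster 3, beside the chemokines Cxcl5 and Cxcl1, although the 7 genes were left out of the clustering. Macrophage-like 24-month cells had 29.1 CPM of Saa3, of which 191 of 420 UMIs came from 1 cell, with 6.37 CPM of Hp, 3.53 CPM of Ptx3 and 1.18 CPM of Lbp. Cluster 6 had levels near those of the fibroblast-marker clusters (Saa3 111, Hp 136, Ptx3 165.0 CPM). The 79 neonatal endothelial-like cells had 19.1 CPM of Lbp (13.9 to 25.6) and 7.37 CPM of Lcn2 (4.29 to 11.8), and neonatal cluster 9 had 1.67 CPM of Lbp and 0.991 CPM of Lcn2. The 13 neonatal cells in cluster 3, which are among the 15 barcodes, had 57.9 CPM of Lbp (39.1 to 82.7).

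**Figure D5:**
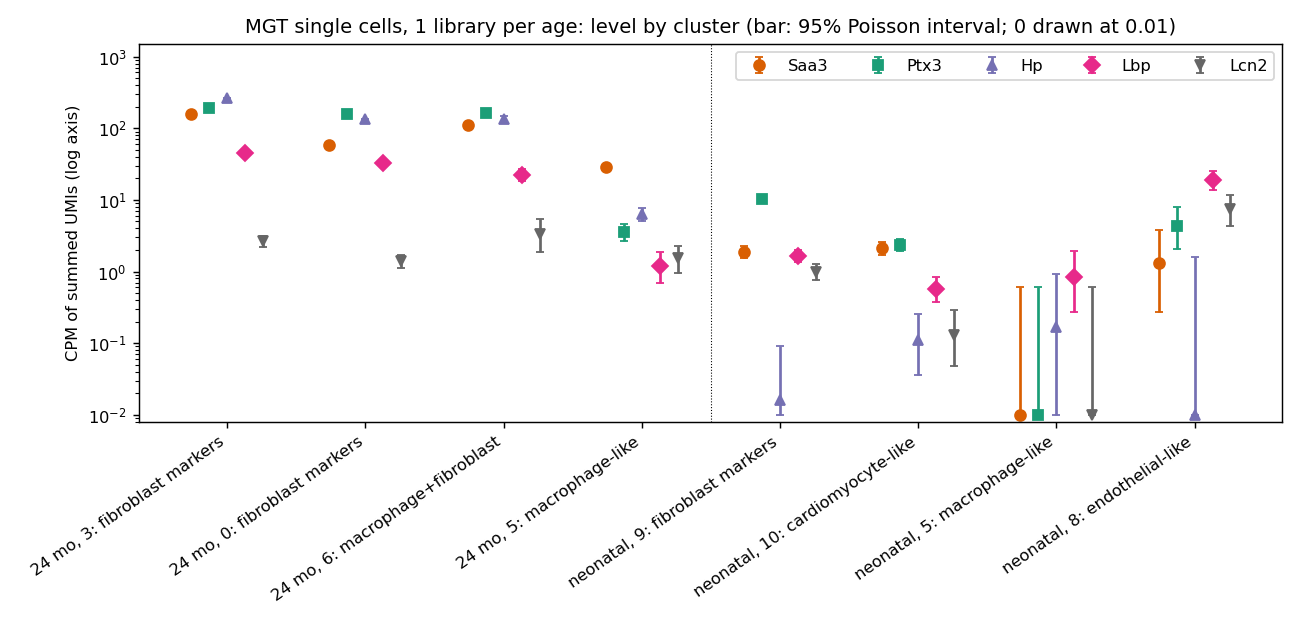
Level of 5 acute-phase genes in clusters of single MGT cells, in CPM of summed UMIs on a log axis; clusters of 24-month cells are left and neonatal ones right of the dotted line, and bars are 95% Poisson intervals, with 0 drawn at 0.01. Saa3, Ptx3, Hp and Lbp are high in 24-month clusters 3, 0 and 6 and low in macrophage-like cells, and Saa3, Ptx3 and Hp lie below them in each neonatal cluster drawn. Lcn2 is highest in neonatal endothelial-like cells (7.37 CPM), whose Lbp interval overlaps that of 24-month cluster 6; the neonatal cells of clusters 3 and 0 are not drawn.

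Within the 24-month fibroblast-marker clusters the UMIs were spread unevenly over cells. Of 2915 cells, 31.3% had a Saa3 UMI (exact binomial interval 29.6 to 33.0), 53.6% an Hp UMI, 68.3% a Ptx3 UMI, 61.8% an Lbp UMI and 4.77% an Lcn2 UMI, at a median of 40653 UMIs per cell. In macrophage-like cells of the same library, at a median of 20251 UMIs, the shares were 8.30, 8.86, 6.47, 1.97 and 1.41%. Thinned to 2000 UMIs per cell, with 37 shallower cells left out, 10.6% of the fibroblast-marker cells had a Saa3 UMI and 18.1% an Hp UMI, against 2.43 and 1.22% of 575 macrophage-like cells (136 left out). The 10% of cells with the most Saa3 held 88.6% of its UMIs, against 75.4% for Hp, 61.5% for Ptx3 and 40.6% for Lbp. Single cells reached 420 UMIs of Saa3 and 1041 of Hp, while Lbp reached 38. Saa3 and Hp tended to be in the same cells: after thinning, 35.1% of the 305 cells with a Saa3 UMI had an Hp UMI, against 16.1% of the 2573 cells without, whereas Ptx3 was found in 19.7 and 20.1%. Of these 24-month cells, the 219 with a UMI of each of Mef2c, Gata4 and Tbx5 had 205 CPM of Saa3 and 124 CPM of Ptx3. Cells with UMIs of 2 factors (1195 cells), of 1 (1063) and of none (438) had 97.3, 80.0 and 106 CPM of Saa3. Ptx3 had 144, 206 and 254 CPM in the same order. Saa3 thus did not rise step by step with the number of factors. Cells with all 3 had a median of 47381 UMIs and cells with none 18384 UMIs. Endogenous and introduced transcripts were not told apart.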

How the data were processed

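The values are raw counts of reads per gene, made and deposited by the authors, in 4 bulk tables, and unique molecular identifier (UMI) counts per gene and cell in 2 single-cell matrices, as deposited. Trimmomatic 0.36, Subread 1.5.1, featureCounts and SAMtools and the mouse build mm10 are named, per the submitters' processing notes; how each was set is not given in the sources used here. The labels name both poly(A) RNA and removal of ribosomal RNA. The members, the gene lists and the tests were chosen with earlier results of these data known. The FPKM columns and 4 count columns of the knockdown table that match no sample were not used. The count columns headed 13 months were matched to the libraries labelled 12 months, those headed 15 months to 18 months, GFP to OECtrl and D3 to MGT, since the other ages and conditions of each table match their labels. All results on these groups rest on that match.

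Each bulk table was fitted alone with edgeR 4.0.16 (R 4.3.3): genes kept by filterByExpr (minimum count 10), TMM normalisation, a robust quasi-likelihood fit with 1 coefficient per group, and Benjamini-Hochberg adjustment over all genes tested, with calls at 0.05. DESeq2 1.42.0, RLE size factors, no filter, only the groups compared, the replicate number as a block and leaving out each replicate were alternatives. The fit was tested on simulated data. Log2 fold changes are given with their SE, and levels as CPM of the effective library size. The labels give no pairing of samples by replicate number. The correlation of same-numbered deviations ran from -0.18 to 0.18 in the MGT table and from -0.14 to 0.092 in the untreated fibroblasts. It was -0.17 and 0.11 in the overexpression and knockdown tables, which hold 1 pair of numbers each and so cannot decide whether samples are paired. No 2 replicates agreed within sampling noise.

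Named besides the 7 genes are up to 4 called genes with the smallest p of each list, Nr4a3 in its own experiments, and the 3 genes most like each member by Pearson correlation of log2 CPM; genes outside this rule (Xist, the marker Alb and the leading genes of clusters) were named after their values were seen. Barcodes with 500 genes or more and a mitochondrial share up to 20% were kept, scaled to 10000 counts, and clustered with scanpy 1.11.5 (Leiden, 2000 variable genes without the members, 50 components, 15 neighbours, resolution 0.5). A cluster was named from 3 or more markers of a type in at least 25% of its cells, with a median of 2 log2 units over the other clusters. Intervals are 95% and cover counting error only, as do limits from a count of 0 (3 counts). Promoter windows and transcript words come from RefSeq and the annotation of GRCm38; Hp and Lbp are not shown.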

Additional observations from a re-analysis of the deposited data

Results flagged for a closer look

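The effect of MGT over LacZ differed between ages for 4 of the 5 members tested, with calls pooled over the interactions between ages. Calls are by the interaction term of edgeR's quasi-likelihood fit (adjusted p under 0.05). Of all genes tested, 3.7% were called for 3 months minus neonatal, 2.82% for 18 months minus neonatal and 2.34% for 18 minus 3 months. The share of all genes called in any of them was not counted. Saa3 had a larger effect at 3 months than in neonatal cells by 2.08 ± 0.27 log2 units (SE; adjusted p = 0.0025) and at 18 months than in neonatal cells by 3.51 ± 0.30 (adjusted p = 2.5e-04). Hp had a more positive effect at 18 months than in neonatal cells by 2.85 ± 0.27 (adjusted p = 5.0e-06) and than at 3 months by 2.26 ± 0.24 (adjusted p = 6.6e-05), with the groups on opposite sides in neonatal and 18-month cells. Lcn2 differed from the neonatal effect by 0.76 ± 0.12 at 3 months (adjusted p = 2.7e-04) and by 0.79 ± 0.13 at 18 months (adjusted p = 5.2e-04). Lbp had a more positive effect at 18 than at 3 months by 0.94 ± 0.22 (adjusted p = 0.0202). Each difference rests on 2 libraries in each of 4 groups. The calls of Lbp, and of Saa3 at 3 months, were lost with some single replicates left out.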

How the results depend on the processing

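Leaving out single replicates moved 4 counts of called members by over 1.5 times. The count at 24 versus 3 months in untreated fibroblasts ranged from 3 to 6 (5 with all libraries), that of the difference in MGT effect between 18 and 3 months from 1 to 3 (2), that between 3 months and neonatal from 1 to 3 (2), and that of OENr4a3 versus OECtrl from 1 to 3 (3). Directions reversed only among values that had not passed. With single replicates left out, Lbp ranged from -0.41 to 0.0080 for the 3-month minus neonatal effect and from -0.17 to 0.085 for MGT versus LacZ at 18 months. Lcn2 ranged from -0.047 to 0.086 for the 18-month minus 3-month effect and from -0.014 to 0.14 for MGT versus LacZ at 3 months. Ptx3 ranged from -0.27 to 0.025 for the 18-month minus 3-month effect, Saa1 from -1.09 to 1.15 for 24 versus 12 months, and Saa3 from -0.33 to 0.050 for LacZ cells at 3 months versus neonatal. The replicate block changed 3 calls. Hp in MGT versus LacZ at 3 months was called (log2 fold change -0.39, adjusted p = 0.0140, edgeR). Saa3 in the 18-month minus 3-month effect was called (1.43, 0.0373), and Ptx3 in LacZ cells at 18 versus 3 months was not (0.27, 0.0600). The block changed no other call of a member. Whether same-numbered libraries share a source is not given in the labels. Crossing the numbers in the overexpression table, chosen after the data were seen, kept the calls of Saa3 and Ptx3. It kept the direction of Hp, whose difference is given with no test. The cause of these changes was not tested. Outside the replicates left out, 494 values of single members kept direction and call, 16 gained a call and 4 lost one. With the 2 groups fitted alone, genes called numbered 2116 rather than 3769 for LacZ cells at 18 versus 3 months, 1798 rather than 2846 for MGT versus LacZ at 3 months, 1977 rather than 1229 for neonatal cells and 882 rather than 461 for the 18-month minus neonatal effect; leaving out single replicates gave 1197 to 7704 for OENr4a3 versus OECtrl (3410). The 2 libraries per group, and counts of 0 to 13 for Saa1, Hp, Saa3 and Lcn2 in neonatal fibroblasts, limit the precision of the fold changes. In the single cells, other cell filters and cluster settings gave 10 to 17 clusters and moved the neonatal values of Lcn2 (0.187 to 0.198 against 1.01 CPM) and Saa3 (3.39 to 3.77 against 5.26 CPM) in the fibroblast-marker clusters. Ptx3 moved there too. Its neonatal value was 11.1 against 12.3 CPM with at least 1000 genes per barcode, and also with the members kept among the variable genes. Its 24-month value was 161 against 173 CPM at resolution 1.0.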
